A study of Mus musculus with 6 samples.

Results

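The subunits of the oxidative phosphorylation (OXPHOS) system were followed in the P20 mouse forebrain. Members were taken by symbol from the protein-coding genes of the GENCODE M21 annotation of GRCm38, as the mitochondrial mt-Nd, mt-Co, mt-Atp and mt-Cytb genes and the nuclear Nduf, Sdh, Uqcr, Cox and Atp5 subunit genes. This gave 98 gene identifiers of 35523 in all, of which 85 were nuclear and 13 lay on the mitochondrial chromosome. Of the 98, 96 had enough counts to be tested among 17096 genes. The other two were Cox8c, with 1 estimated count in wild-type mouse Nas2Del_WT_1016 and 0 in the other 5 mice, and a second identifier of Atp5o that reads on from the Atp5o exons, with at most 3 counts. The symbols leave out some genes that belong to or act on the same complexes, among them Ndufab1, Cyc1, Usmg5 and Atpif1.

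Complexes I to IV pass electrons from NADH and succinate to oxygen and pump protons out of the mitochondrial matrix, except for complex II, which pumps none. Complex V (ATP synthase) lets the protons back and makes ATP. Complexes I, III, IV and V are built from subunits of both genomes, while complex II is wholly nuclear, and neurons draw most of their ATP from this system. Several complex IV subunits have paralogs that are used in muscle, testis, lung or oxygen-poor tissue.

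Whole forebrain of C57BL/6 mice at postnatal day 20 was compared between 3 Slc13a4+/- mice (Nas2Del_Het_1024, Nas2Del_Het_1025 and Nas2Del_Het_1027), which are missing an allele of the sulfate transporter gene Slc13a4, and 3 wild-type mice (Nas2Del_WT_1016, Nas2Del_WT_1018 and Nas2Del_WT_1026). The wild-type mice were littermates from crosses of heterozygous males with wild-type females, but neither their litters nor the part of the gene removed from the deleted allele are stated in the text used. Values of single mice are given below in the order in which the mice are named here. Each mouse gave 1 stranded library of rRNA-depleted total RNA, quantified with Salmon. Bulk tissue cannot tell fewer cells of a type from less RNA per cell.

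The estimated counts summed to 60340337 to 80410582 per mouse. Slc13a4 itself was lower in every Slc13a4+/- mouse, with 5.42 to 6.57 CPM (TMM-scaled counts per 1000000) against 8.23 to 10.44 in the wild-type mice. This was a log2 fold change of -0.67 (SE 0.11) that edgeR, the main test, did not call (adjusted p = 0.499) and DESeq2 did (adjusted p = 0.0024). Nas2Del_WT_1026 stood apart from the other mice, at -27.7 on a first principal component that held 39.6% of the variance of the 500 most variable genes. Nas2Del_WT_1016 had 7014 counts of the Y-linked gene Ddx3y, against at most 2 in any other mouse, and no label states sex. Retained-intron transcripts took 2.03% to 2.45% of all counts in Slc13a4+/- forebrain against 1.81% to 2.02% in wild-type forebrain. The ranges did not overlap but nearly touched, with 2.03% in Nas2Del_Het_1024 and 2.02% in Nas2Del_WT_1018. All 7 choroid plexus markers (summed CPM 390.7 to 454.5 against 472.6 to 479.5) and all 6 microglia markers (272.6 to 281.4 against 294.5 to 298.4) had log2 fold changes below 0. Endothelial markers also summed lower without overlap, with 5 of 6 below 0 (180.0 to 191.5 against 196.3 to 209.7). Taken singly, 3 of 7 choroid plexus, 3 of 6 microglia and 3 of 6 endothelial markers were lower without overlap (background, 7.7% of all tested genes). Ttr alone held 353.2 to 411.8 CPM of the choroid plexus sum in Slc13a4+/- forebrain and 430.2 to 436.6 in wild-type forebrain. Fold changes below 0 were also found for oligodendrocyte (6 of 6), astrocyte (5 of 6), ependymal (5 of 5) and erythroid (5 of 5) markers, whose summed levels overlapped between the genotypes. The summed neuron markers overlapped, at 7106 to 7221 against 6935 to 7510.

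The sequences shown first are those that decide how reads of mitochondrial genes could be counted. A block of 5 annotated pseudogenes with counts on the minus strand of chromosome 1 (GRCm38 chr1:24612775-24616197, 3423 bases) repeats part of the mitochondrial genome, and Salmon must divide reads that fit both. On the same strand the repeat goes on with Gm28439 and Gm10222 (chr1:24611535-24612410 and chr1:24612407-24612700), which equal mt-Nd4 over 876 bases and mt-Nd4l over 294 bases without a difference. Both had 0 counts in all 6 mice, so all counts of these pairs were given to the mitochondrial gene. Gm28661 equals mt-Co2 over 681 bases without a difference. Gm28437 likewise equals mt-Co3 over 783 bases, and Gm10925 equals mt-Atp6 over 678 bases. Gm29216 equals the last 483 bases of mt-Co1 but for the substitution A1066T, and Gm28438 equals mt-Nd3 over 345 bases but for T3C, with the mitochondrial base first and positions counted from the first base of the mitochondrial transcript. The stretches are, 5′ to 3′ on the strand of each gene, mt-Co2 at chrM:7323-7383 (plus strand), Gm28661 at chr1:24615195-24615255 (minus), mt-Co1 at chrM:6390-6423 (plus), Gm29216 at chr1:24616155-24616188 (minus), mt-Nd3 at chrM:9459-9491 (plus) and Gm28438 at chr1:24613087-24613119 (minus). Capitals mark the base that differs in a pair, and the first pair has none.
mt-Co2: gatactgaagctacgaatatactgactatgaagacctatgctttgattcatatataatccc
Gm28661: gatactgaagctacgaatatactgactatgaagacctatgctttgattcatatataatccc
mt-Co1: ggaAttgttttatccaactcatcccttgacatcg
Gm29216: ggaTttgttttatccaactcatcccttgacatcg
mt-Nd3: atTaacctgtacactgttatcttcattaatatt
Gm28438: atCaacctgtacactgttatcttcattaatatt

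The estimated counts were split very differently from pair to pair. Gm28661 held 96.7%, 96.6% and 97.1% of its joint counts with mt-Co2 in Slc13a4+/- forebrain, and 95.8%, 96.1% and 96.9% in wild-type forebrain. The mt-Co2 gene, which encodes the subunit of complex IV that accepts electrons from cytochrome c, was left with 366 TPM (transcripts per 1000000, a level per length), while Gm28661 had 10330 TPM. The share of Gm28437 in its pair with mt-Co3 ran from 32.2% to 45.5%, and that of Gm10925 in its pair with mt-Atp6 from 24.8% to 45.2%, both highest in Nas2Del_Het_1025 and lowest in Nas2Del_WT_1016. Gm29216 held 14.6% to 15.3% of its pair with mt-Co1, and Gm28438 held 3.67% to 12.9% of its pair with mt-Nd3. The shares of all 5 overlapped between the genotypes. The neighbouring genes mt-Atp8 and mt-Atp6 also overlap, by 43 bases on the same strand. mt-Nd5 and mt-Nd6 overlap by 14 bases on opposite strands, which stranded reads tell apart.

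Nuclear members share reads with processed copies as well. Gm10175, a copy of Atp5g2 over 645 bases on chromosome 7, held 81.4% to 86.1% of their joint counts. Ndufb4c held 52.9% to 54.4% of its pair with Ndufb4, an accessory subunit of complex I, and Gm12338 held 9.27% to 12.7% of its pair with Cox7c. In all, 29 members had an annotated pseudogene that matched them at 95% identity or more over at least 90% of its length, 48 such copies together, of which 8 had a mean of 500 counts or more per mouse. Differences between the genotypes of the members with these 8 copies are therefore given as the counts were divided, and also with the copy added.

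**Figure D1:**
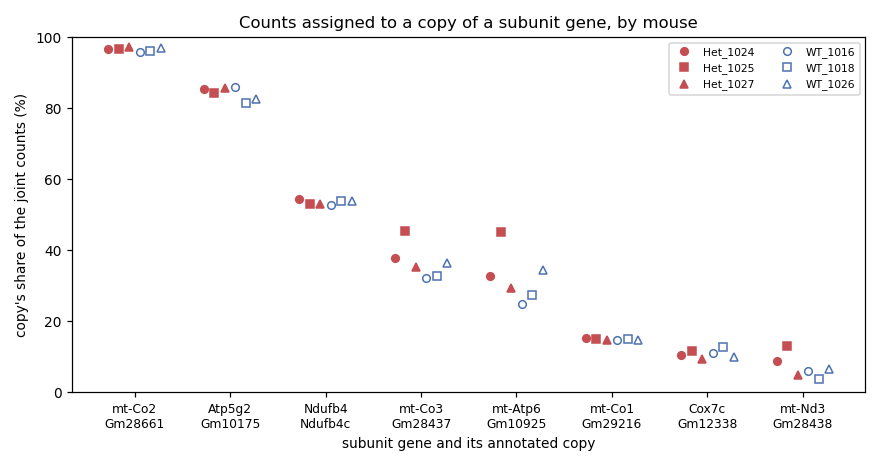
Share of the joint estimated counts of a subunit gene and its annotated copy that Salmon gave to the copy (y axis, %), for the 8 copies with a mean of 500 counts or more (x axis). Points are mice (filled, Slc13a4+/-; open, wild-type), and the shares run from 95.8% to 97.1% for mt-Co2 down to 3.67% to 12.9% for mt-Nd3.

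The highest levels were those of mitochondrial members. Over the 6 mice, with the counts as divided by Salmon, mt-Atp8 averaged 12650 TPM, mt-Co3 11060, mt-Co1 10850, mt-Nd3 6314 and mt-Atp6 5012. The complex I genes mt-Nd1, mt-Nd4, mt-Nd2, mt-Nd4l and mt-Nd5 followed at 2549, 855, 576, 453 and 281 TPM, with mt-Cytb of complex III at 2303. The lowest was mt-Nd6, which lies on the opposite strand to the other 12, with 111.9 TPM. With the TPM of the copy added, each at its own length, the sums were 17500 for mt-Co3, 10690 for mt-Co2, 7485 for mt-Atp6 and 6807 for mt-Nd3. The sum for mt-Co3 thus lay above mt-Atp8. For mt-Co1 the sum was 18630 TPM, which overstates its level. Gm29216 has 492 bases against 1545 for mt-Co1, and it held only 14.6% to 15.3% of their joint counts. The other pairs have nearly equal lengths. The place of these genes in the order thus depended on how reads were divided. That of mt-Atp8 also depended on the correction for length, as this gene is short (chrM:7766-7969). It had 23507 to 39058 counts per mouse, against 430592 to 645966 for mt-Co1.

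Among nuclear members with at least 10 TPM in every mouse, the median level was lowest in complex II (199.9 TPM, 4 genes) and complex I (255.6 TPM, 35 genes). It was higher in complex III (403.5 TPM, 8 genes), complex V (530.2 TPM, 17 genes) and complex IV (864.2 TPM, 13 genes). Complex I members ran from 133.4 TPM for Ndufb4 to 588.6 for Ndufb9. Ndufb4 was lowest as its reads were divided, and its TPM summed with that of Ndufb4c, each at its own length, was 418.8. The catalytic subunits of complex I, Ndufv1, which binds NADH, and Ndufs1, an iron-sulfur protein, had 213.9 and 164.7 TPM. In complex II, the flavoprotein Sdha had 290.1 TPM and the membrane anchor Sdhc 134.1. In complex III, levels ran from 193.7 TPM for the Rieske iron-sulfur protein Uqcrfs1 to 885.1 for Uqcr11. Cox8a was the highest nuclear member at 1966 TPM, and Cox4i1 had 1454. In complex V, the catalytic subunit Atp5b had 1760 TPM and its partner Atp5a1 905.5.

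**Figure D2:**
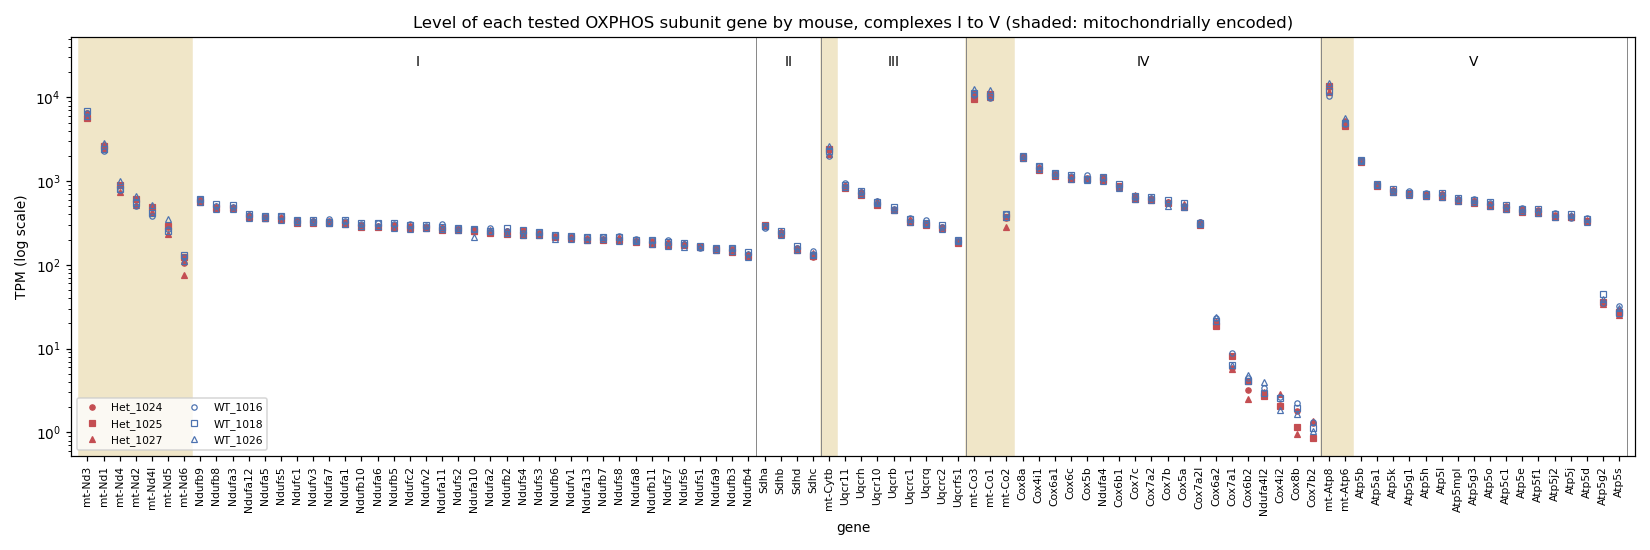
Level of each tested subunit gene in TPM (y axis, log scale) in each of the 6 mice, grouped by complex I to V and ordered by mean within nuclear and within mitochondrial genes (shaded). Mitochondrial genes span 111.9 to 12650 TPM in their means, and most nuclear genes lie between 133.4 and 1966 TPM, apart from the rare complex IV paralogs, Atp5g2 and Atp5s.

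Not all counts of a member came from transcripts that encode the protein. Transcripts annotated as retained introns or as targets of nonsense-mediated decay held a mean of 63.1% of the counts of Ndufs4, 55.5% of those of Ndufb4 and 45.2% of those of Ndufa10, with overlapping genotypes. These 3 genes encode subunits of complex I. Outside complex I, the share reached 39.65% in Atp5j, 32.56% in Cox7b and 32.0% in Atp5f1. It was higher in Slc13a4+/- forebrain without overlap for Ndufv1 (2.90% to 3.63% against 2.02% to 2.69%) and Ndufs1 (2.60% to 3.125% against 1.71% to 2.54%). The same held for Ndufb2, Ndufb5, Ndufb7, Ndufb10 and Cox8a, the last with at most 0.053%. No member was lower without overlap. How many of all genes were higher without overlap in this share was not computed, so the list is not read as particular to the members. The retained-intron share of all counts was also higher without overlap, with ranges that nearly touched.

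Among the complex IV paralogs with a tissue-restricted form, the widely used form lay far above the other. Cox6a2, the form of heart and skeletal muscle that is also known from parvalbumin interneurons, had 21.6 TPM against 1213 for Cox6a1. The muscle forms Cox7a1 and Cox8b had 6.89 and 1.62 TPM, against 617.6 for Cox7a2 and 1966 for Cox8a. Cox4i2, known from lung and from low oxygen, had 2.35 TPM against 1454 for Cox4i1, and Ndufa4l2, which low oxygen induces, had 3.18 against 1078 for Ndufa4 (both counted with complex IV here, where Ndufa4 is now placed). The testis forms Cox6b2 and Cox7b2 had 3.87 and 1.18 TPM. Cox7a2l had 314.8 TPM and made up 32.8% to 34.2% of the summed TPM of the Cox7a family. The 3 genes of the c subunit of ATP synthase were used unequally, with 711.9 TPM for Atp5g1, 583.5 for Atp5g3 and 37.4 for Atp5g2 as counted without its copy.

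The share of counts on mitochondrial members varied between mice more than between genotypes. It was 1.655%, 1.584% and 1.511% in Slc13a4+/- forebrain and 1.522%, 1.620% and 1.782% in wild-type forebrain. The nuclear members together took 1.123%, 1.070% and 1.112% in the Slc13a4+/- mice and 1.163%, 1.174% and 1.055% in the wild-type mice. Nas2Del_WT_1026 thus had the largest mitochondrial share and the smallest nuclear share of the 6. The group means were 1.583% ± 0.072 against 1.641% ± 0.131 (SD, n = 3) for the mitochondrial share and 1.102% ± 0.028 against 1.131% ± 0.066 (SD, n = 3) for the nuclear share. The nuclear-to-mitochondrial count ratio was 0.679, 0.676 and 0.736 in the Slc13a4+/- mice and 0.764, 0.725 and 0.592 in the wild-type mice, with means of 0.697 ± 0.034 and 0.694 ± 0.090 (SD, n = 3). The wild-type mice held both the highest and the lowest ratio. With the 11 copies of mitochondrial members added (0.562% to 0.746% of the total), the ratio ran from 0.459 to 0.529 in Slc13a4+/- forebrain and from 0.422 to 0.558 in wild-type forebrain.

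Nuclear members mostly moved together from mouse to mouse, and mitochondrial members did so with more exceptions. For each member the deviation of its log2 CPM in a mouse from its mean over the 6 mice was taken, over the 77 nuclear members with at least 10 TPM in every mouse and all 13 mitochondrial members. The median nuclear deviation was 0.005, -0.071 and -0.013 in Slc13a4+/- forebrain, and 0.060, 0.069 and -0.054 in wild-type forebrain. The mitochondrial medians were 0.050, 0.067 and -0.134 in the Slc13a4+/- mice and -0.107, -0.025 and 0.189 in the wild-type mice. By these medians nuclear members were high in Nas2Del_WT_1016 and Nas2Del_WT_1018 and low in Nas2Del_Het_1025 and Nas2Del_WT_1026. Mitochondrial members were high in Nas2Del_WT_1026 and low in Nas2Del_Het_1027 and Nas2Del_WT_1016, with exceptions. mt-Nd3 lay at -0.088 in Nas2Del_WT_1026, and mt-Nd6 and mt-Co2 lay at 0.190 in Nas2Del_WT_1016. mt-Co3 and mt-Atp6 lay at -0.199 and -0.163 in Nas2Del_Het_1025, where the mitochondrial median was 0.067. The groups overlapped in both the nuclear and the mitochondrial medians.

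The pattern held gene by gene for most nuclear members and less closely for mitochondrial ones. Of the 77 nuclear members, 40 were highest in Nas2Del_WT_1018 and 34 in Nas2Del_WT_1016, and 51 were lowest in Nas2Del_Het_1025 and 22 in Nas2Del_WT_1026. Among all 9728 tested genes at that level, 18.03% were highest in Nas2Del_WT_1018, 24.34% in Nas2Del_WT_1016 and 27.03% in Nas2Del_WT_1026, and 26.18% were lowest in Nas2Del_Het_1025, 13.37% in Nas2Del_WT_1026 and 12.38% in Nas2Del_Het_1027. Of the 13 mitochondrial members, 10 were highest in Nas2Del_WT_1026, while 6 were lowest in Nas2Del_Het_1027, 4 in Nas2Del_WT_1016 and 3 in Nas2Del_Het_1025. The medians of nuclear members were above 0 in Nas2Del_WT_1016 and Nas2Del_WT_1018 and below 0 in Nas2Del_Het_1025, Nas2Del_Het_1027 and Nas2Del_WT_1026 in each of the 5 complexes. In Nas2Del_WT_1026 they lay between -0.058 and -0.037 in the 5 complexes, and in Nas2Del_WT_1018 between 0.052 and 0.092. Over the mice the median SD of a member was 0.066 on the log2 scale for nuclear members, 0.160 for mitochondrial members and 0.061 for all genes at 10 TPM or more.

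**Figure D3:**
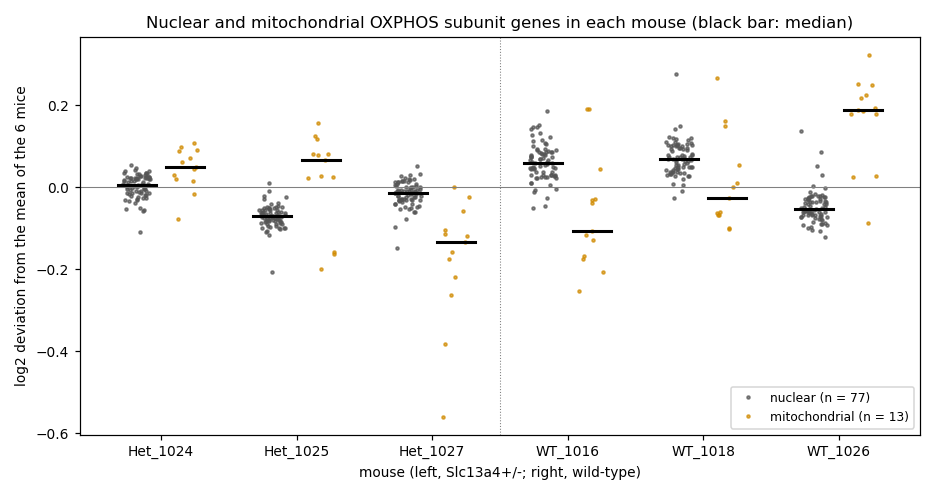
Deviation of log2 CPM from the mean of the 6 mice (y axis) for each of 77 nuclear and 13 mitochondrial subunit genes (points) in each mouse (x axis), with the median as a black bar. The nuclear medians run from -0.071 in Nas2Del_Het_1025 to 0.069 in Nas2Del_WT_1018, and the mitochondrial medians from -0.134 in Nas2Del_Het_1027 to 0.189 in Nas2Del_WT_1026.

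Between the genotypes no member passed the test. The quasi-likelihood test of edgeR called 0 of 96 members at a Benjamini-Hochberg adjusted p under 0.1 (background, 0.00585% of all tested genes), and the DESeq2 Wald test called 0 of 96 (background, 0.487%). The edgeR test did not call Slc13a4 either. At an unadjusted p under 0.05 edgeR had 0 members higher (background, 4.98%) and 3 lower (background, 4.17%), namely Cox6a2, Atp5g2 and mt-Co2, and DESeq2 had 0 higher (background, 3.86%) and 4 lower (background, 2.99%), namely mt-Co2, mt-Nd6, mt-Co3 and Atp5g2. Of these, mt-Co2, mt-Co3 and Atp5g2 have a copy with counts. The smallest adjusted p of a member was 0.518 in edgeR and 0.382 in DESeq2. The fold changes were small but nearly all on one side. The log2 fold change was below 0 in 89 of 96 members, against 52.2% of all tested genes, and members that moved together from mouse to mouse are not independent of each other. The median was -0.056 over 83 nuclear members, -0.047 over 13 mitochondrial members and -0.005 over all tested genes, beside a median SE of 0.050 for a nuclear member and 0.099 for a mitochondrial one.

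The nuclear members of every complex had a similar median. It was -0.055 in complex I (35 of 35 below 0), -0.050 in complex II (3 of 4), -0.062 in complex III (8 of 8), -0.053 in complex IV (17 of 19) and -0.059 in complex V (17 of 17). The catalytic or core subunits named here ran from -0.07 (SE 0.04) for Uqcrfs1 to 0.0056 (SE 0.036) for Sdha. Between these lay Ndufv1 at -0.06 (SE 0.04), Uqcrc1 at -0.05 (SE 0.05), Atp5b at -0.04 (SE 0.04) and Sdhb at -0.04 (SE 0.05). Atp5a1 had -0.02 (SE 0.04) and Ndufs1 -0.0046 (SE 0.039). Ndufa6, an accessory subunit of complex I, had the smallest p among its nuclear members in edgeR, with -0.10 (SE 0.05, adjusted p = 0.578 in edgeR).

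**Figure D4:**
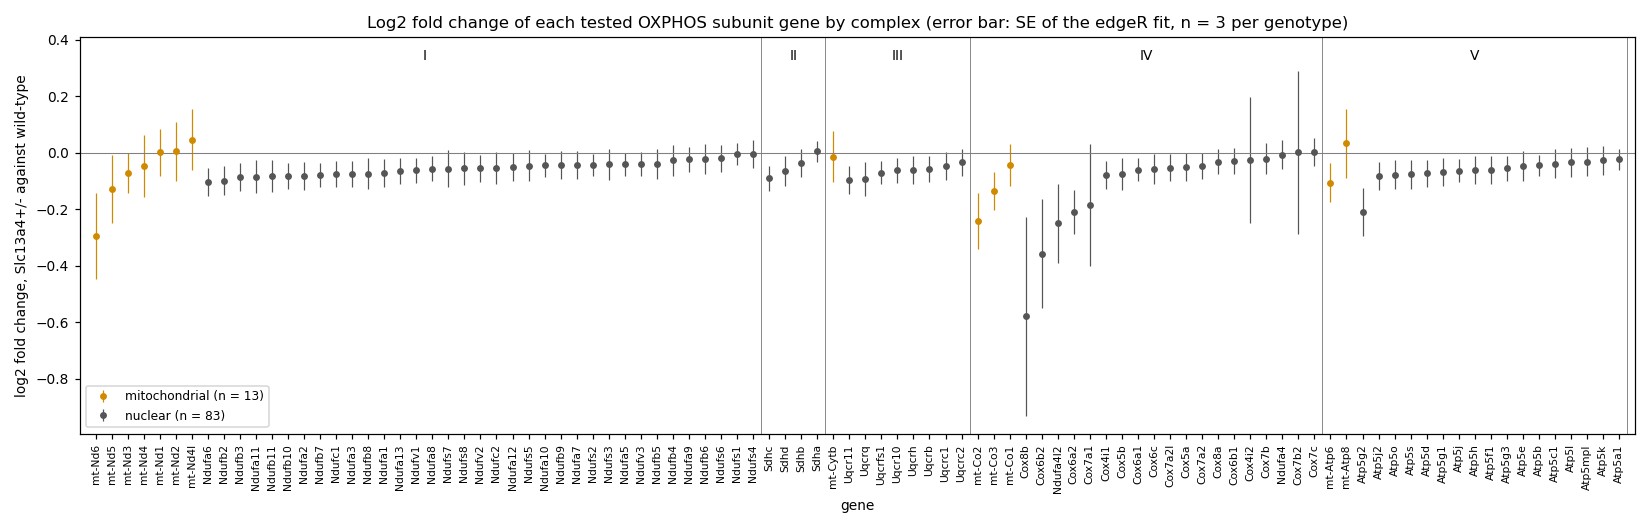
Log2 fold change of Slc13a4+/- against wild-type mice (y axis, point) with its SE in the edgeR fit (bar, n = 3 per genotype) for the 96 tested members by complex (x axis). Of the 96, 89 lie below 0 and none was called.

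The values of 8 members did not overlap between the genotypes, all 8 lower in the Slc13a4+/- mice (background, 7.7% of all tested genes), and 0 were higher without overlap (background, 7.26%). The 8 were Sdhc, Uqcrq, mt-Co2, Cox6a2, Cox6b2, Ndufa4l2, Atp5j and Atp5s. Sdhc, a membrane anchor of complex II, had 67.47, 65.37 and 67.35 CPM in Slc13a4+/- forebrain and 74.5, 71.24 and 67.51 in wild-type forebrain. Atp5j, a coupling subunit of complex V, had 90.2, 88.0 and 89.2 CPM against 90.3, 97.9 and 91.3. Uqcrq, a small subunit of complex III, had 55.1, 53.4 and 55.1 CPM against 64.0, 55.3 and 55.3. In each of these 3 genes the highest Slc13a4+/- value and the lowest wild-type value nearly touched. Atp5s, a coupling factor gene, had 12.02, 12.04 and 11.32 CPM against 12.41, 12.34 and 12.54, a log2 fold change of -0.08 (SE 0.05, adjusted p = 0.667 in edgeR).

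Cox6a2 (chr7:128205435-128206387, minus strand) had the smallest p of all members in edgeR, while in DESeq2 mt-Co2 had it (unadjusted p = 0.0064). The Cox6a2 level was 5.25, 4.73 and 5.25 CPM in Slc13a4+/- forebrain and 6.04, 5.58 and 6.00 CPM in wild-type forebrain. Its log2 fold change of -0.21 (SE 0.08) had an unadjusted p of 0.026 and an adjusted p of 0.518 in edgeR and an adjusted p of 0.817 in DESeq2. Its share of the summed TPM of Cox6a1 and Cox6a2 was 1.58% to 1.71% in Slc13a4+/- forebrain and 1.72% to 1.94% in wild-type forebrain. The 4 genes taken as parvalbumin interneuron markers (Pvalb, Kcnc1, Syt2 and Tac1) all had log2 fold changes below 0, from -0.09 for Syt2 to -0.01 for Tac1. Their summed CPM was 251.4 to 257.9 against 258.3 to 275.6, of which Kcnc1 alone held 110.5 to 111.4 against 105.8 to 125.6. Each of the 4 overlapped between the genotypes, Pvalb itself with 30.5 to 33.8 CPM against 31.9 to 35.1, and the summed ranges nearly touched. Striated muscle markers summed to 8.998 to 9.463 CPM against 8.398 to 8.803, higher in the Slc13a4+/- mice. The part of these cell types in the Cox6a2 values was not tested.

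The other rare paralogs were measured with few counts, between 7 and 108 per mouse. Ndufa4l2 had 1.12, 1.03 and 1.06 CPM in Slc13a4+/- forebrain and 1.28, 1.14 and 1.39 in the wild-type mice, a log2 fold change of -0.25 (SE 0.14, adjusted p = 0.621 in edgeR). Cox6b2 had 0.592, 0.622 and 0.468 CPM against 0.691, 0.662 and 0.795, a log2 fold change of -0.36 (SE 0.19, adjusted p = 0.608 in edgeR). For both genes the gap between the genotypes was smaller than the range within the wild-type group. Cox8b, with 7 to 15 counts per mouse, had the largest fold change of all members in edgeR, -0.58 (SE 0.35), and its groups overlapped. Cox7a1 (-0.18, SE 0.22), Cox4i2 (-0.02, SE 0.22) and Cox7b2 (0.0012, SE 0.29) overlapped as well. The summed pericyte markers, cells where Ndufa4l2 and Cox4i2 are known to be expressed, overlapped at 202.9 to 215.9 CPM against 209.9 to 228.4, and the germ cell markers Prm1, Prm2 and Tnp1 were at 0 in all mice. The other germ cell markers, Ldhc and Pgk2, reached at most 0.033 and 0.013 CPM.

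**Figure D5:**
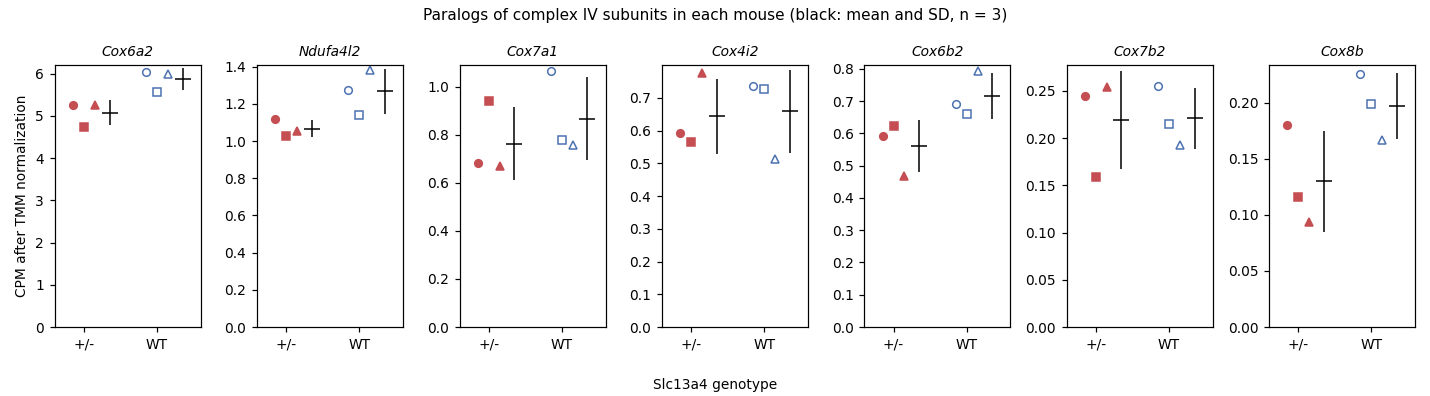
CPM after TMM normalization (y axis, from 0) of 7 rare paralogs of complex IV subunits in each mouse (filled, Slc13a4+/-; open, wild-type), with the mean and SD of 3 mice in black. Cox6a2, Ndufa4l2 and Cox6b2 are lower in all 3 Slc13a4+/- mice, and the other 4 overlap.

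mt-Co2 (chrM:7013-7696, plus strand) had 92.0, 94.5 and 71.4 CPM in Slc13a4+/- forebrain and 106.2, 104.1 and 94.8 in wild-type forebrain. This gave a log2 fold change of -0.24 (SE 0.10, unadjusted p = 0.038, adjusted p = 0.535 in edgeR). These counts were the 2.87% to 4.19% of the pair that Gm28661 did not take. With the counts of both added, the pair had 2823, 2760 and 2484 CPM against 2532, 2661 and 3067, the groups overlapped, and its log2 fold change was -0.03 (SE 0.07, adjusted p = 0.913 in edgeR). Other copied genes likewise lay closer to 0 with the copy added, with mt-Co3 at -0.14 (SE 0.07) alone and -0.0073 (SE 0.068) with Gm28437, mt-Atp6 at -0.11 (SE 0.07) alone and 0.04 (SE 0.10) with Gm10925, and mt-Nd3 at -0.07 (SE 0.07) alone and -0.02 (SE 0.06) with Gm28438. The fold change of mt-Co1 was -0.04 (SE 0.07) either way, that of Ndufb4 was -0.03 (SE 0.06) either way, and Cox7c had 0.0027 (SE 0.049) alone and -0.01 (SE 0.05) with Gm12338. The median over the 13 mitochondrial members was -0.014 once the copies were added. Atp5g2 had 9.579, 9.981 and 9.332 CPM against 9.975, 12.52 and 10.96, a log2 fold change of -0.21 (SE 0.09, adjusted p = 0.530 in edgeR), and -0.06 (SE 0.05) with Gm10175.

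Of the mitochondrial genes without a copy among the 8, mt-Nd6 had the lowest fold change. It had 18.4, 21.7 and 13.2 CPM in Slc13a4+/- forebrain and 22.2, 23.4 and 19.8 in wild-type forebrain, with Nas2Del_Het_1027 lowest and the groups overlapping. This was a log2 fold change of -0.29 (SE 0.15, adjusted p = 0.599 in edgeR). mt-Nd5, its neighbour on the opposite strand, had -0.13 (SE 0.12). mt-Nd1, mt-Nd2, mt-Nd4l and mt-Atp8 lay above 0, between 0.0027 and 0.05, and mt-Cytb had -0.01 (SE 0.09).

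The size of these medians depended on single mice, and so did the sign of the mitochondrial one. Without Nas2Del_WT_1026, 82 of 83 nuclear members lay below 0 with a median of -0.094, and 38 members were lower and 1 higher at an unadjusted p under 0.05 (background for lower, 8.6%), while the mitochondrial median was 0.048. That fit called 223 of 17337 genes (background, 1.29%) and 0 members, the smallest adjusted p being 0.107 (Ndufa6, whose adjusted p went up to 0.993 in other settings). Without Nas2Del_WT_1016, the mouse with Ddx3y counts, the nuclear median was -0.031, and without Nas2Del_WT_1018 or Nas2Del_Het_1025 it was -0.032 in both cases. With the run of animal numbers as a covariate, which sets the Slc13a4+/- mice against Nas2Del_WT_1026 alone, the nuclear median was 0.025 and the mitochondrial median -0.21. With retained-intron and decay transcripts left out, the nuclear median was -0.048. The summed CPM of choroid plexus, microglia, endothelial and parvalbumin interneuron markers were lower in the Slc13a4+/- mice without overlap. Single markers of each of these lists overlapped. The part of these cell types in the fold changes of the members was not tested.

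Genes that build or serve the complexes were taken as 11 lists. edgeR called 0 of their 131 tested genes in either direction (background, 0.00585%), and DESeq2 called 1 (Tfb2m; background, 0.487%). Of the 131, 2 were higher at an unadjusted p under 0.05 in edgeR (Gabpb2 and the complex IV assembly factor Coa7) and 1 was lower (Timm50), beside backgrounds of 4.98% and 4.17%. Without overlap, 12 of the 131 were lower (background, 7.7% of all tested genes) and 6 were higher (background, 7.26%). Assembly factors had medians of -0.019 for complex I (10 of 16 below 0), -0.036 for complex II (3 of 4), -0.045 for complex III (6 of 6), -0.017 for complex IV (13 of 21) and -0.069 for complex V (5 of 5). The electron carriers and ATP export genes had a median of -0.052 (8 of 8 below 0), with -0.05 (SE 0.05) for cytochrome c (Cycs) and -0.05 (SE 0.05) for the ADP/ATP carrier Slc25a4. The citric acid cycle genes had -0.012 (14 of 17), mitochondrial protein import -0.048 (8 of 10) and mitochondrial RNA processing -0.019 (11 of 16). The genes that replicate and transcribe mitochondrial DNA had 0.037, with 5 of 14 below 0, and the nuclear regulators -0.012 (8 of 14). Timm50, a channel regulator of protein import, had 18.4, 17.9 and 17.8 CPM against 19.9, 19.2 and 18.8, a log2 fold change of -0.10 (SE 0.04, unadjusted p = 0.0496, adjusted p = 0.546 in edgeR).

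Among the nuclear regulators, Gabpb2, a subunit of the GA-binding protein, had 16.9, 17.4 and 16.6 CPM in Slc13a4+/- forebrain and 13.6, 14.4 and 16.4 in wild-type forebrain. It had a log2 fold change of 0.20 (SE 0.07, unadjusted p = 0.021, adjusted p = 0.507 in edgeR). Without Nas2Del_WT_1026 edgeR called Gabpb2 (adjusted p = 0.092), and over the other settings its adjusted p reached 0.858. Gabpa, the subunit of the same protein that binds DNA, was lower without overlap, with 35.7, 36.0 and 35.6 CPM against 37.5, 36.7 and 37.0, and had a log2 fold change of -0.05 (SE 0.03, adjusted p = 0.654 in edgeR). Yy1, a zinc finger transcription factor, had 87.7, 86.9 and 88.8 CPM against 92.3, 89.6 and 94.2, again without overlap, and a log2 fold change of -0.07 (SE 0.04, adjusted p = 0.600 in edgeR). With transcript lengths as offsets DESeq2 gave 0.013 for Gabpa and 0.0036 for Yy1. Esrrb, an orphan nuclear receptor, was higher without overlap, with 2.63 to 2.83 CPM against 2.06 to 2.56 (0.24, SE 0.11, adjusted p = 0.566 in edgeR). Of the 14 regulators, 2 were thus lower without overlap (background, 7.7% of all tested genes) and 2 higher (background, 7.26%). The other 10 regulators overlapped between the genotypes, among them Nrf1 (-0.04, SE 0.04) and Ppargc1a (0.03, SE 0.08), which drive transcription of respiratory genes. Tfam (-0.02, SE 0.05), which packs and transcribes mitochondrial DNA, overlapped as well. Tfb2m, the mitochondrial transcription factor that opens promoters, was called by DESeq2 with transcript lengths as offsets (log2 fold change 0.31, adjusted p = 0.0084) and not by edgeR (0.06, SE 0.04, adjusted p = 0.649). Its counts were 21.9, 22.0 and 22.4 CPM against 21.2, 21.5 and 21.1. A processed transcript of Tfb2m of 458 bases held 50.1, 51.2 and 55.9 counts in Slc13a4+/- forebrain and 0 in each of the 3 wild-type libraries, beside 1234 to 1593 counts on the coding transcript over the 6 mice. Without the length offsets DESeq2 gave a log2 fold change of 0.057, and over all settings the adjusted p of Tfb2m ran from 0.0084 to 0.9996.

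RefSeq promoters of GRCm38.p6 (250 bases before to 50 after the start) were matched to 68 of the 85 nuclear members and to 17172 genes in all, and searched on both strands for 3 short motifs of known regulators of respiratory genes. The nearest promoter was taken without a limit on distance. Some lay far from the annotated gene start, such as those of Atp5d (3643 bases), Cox7a2l (2997) and Atp5g2 (1305, with 2 NRF1 matches). GCGCANGCG, letters bound by NRF1, stood in 19 of 68 member promoters (27.9%) against 9.06% of all promoters and 11.8% of those of tested genes. CCGGAAG, bound by ETS factors such as the GA-binding protein, stood in 15 of 68 (22.1%) against 12.1% of all and 15.4% of tested genes, and AANATGGCG, bound by YY1, in 8 of 68 (11.8%) against 3.4% and 4.37%. Any of the 3 stood in 35 of 68 member promoters (51.5%), against 21.5% of all and 27.6% of those of tested genes, and the other member promoters held none. A match is a description of letters and not a bound site. As examples of complexes I, II, IV and V, the 250 bases before the start are printed for Ndufb4 (chr16:37654369-37654618), Sdha (chr13:74350241-74350490), Cox6a1 (chr5:115348959-115349208) and Atp5k (chr5:108434400-108434649), all on the minus strand, 5′ to 3′ in the direction of the gene. Capitals mark motif matches, with 3 of NRF1 in Ndufb4 and in Sdha, 3 of NRF1 and 1 of the ETS letters in Cox6a1 and 2 of NRF1 in Atp5k. In Cox6a1 and Atp5k a pair of NRF1 matches on opposite strands overlaps and is drawn as a single run of capitals.
Ndufb4: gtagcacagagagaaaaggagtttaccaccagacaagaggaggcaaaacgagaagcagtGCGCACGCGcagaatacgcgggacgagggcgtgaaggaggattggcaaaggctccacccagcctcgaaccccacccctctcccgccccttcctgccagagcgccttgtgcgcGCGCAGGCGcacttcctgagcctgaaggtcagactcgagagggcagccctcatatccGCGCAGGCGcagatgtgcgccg
Sdha: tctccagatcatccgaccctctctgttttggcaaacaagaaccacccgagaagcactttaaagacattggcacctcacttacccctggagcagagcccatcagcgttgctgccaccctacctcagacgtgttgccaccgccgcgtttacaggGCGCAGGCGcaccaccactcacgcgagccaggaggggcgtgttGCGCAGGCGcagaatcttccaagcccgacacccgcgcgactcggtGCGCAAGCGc
Cox6a1: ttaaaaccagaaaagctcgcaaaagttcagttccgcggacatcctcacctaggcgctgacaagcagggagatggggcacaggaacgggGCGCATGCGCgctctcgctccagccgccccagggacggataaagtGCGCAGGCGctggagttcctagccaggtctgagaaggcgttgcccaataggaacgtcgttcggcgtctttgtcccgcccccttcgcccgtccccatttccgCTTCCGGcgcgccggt
Atp5k: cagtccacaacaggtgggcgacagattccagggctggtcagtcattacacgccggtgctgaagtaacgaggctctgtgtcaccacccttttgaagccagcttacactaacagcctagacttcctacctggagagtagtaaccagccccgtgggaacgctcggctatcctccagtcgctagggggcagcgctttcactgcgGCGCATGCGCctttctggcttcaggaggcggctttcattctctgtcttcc

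The fold changes of these 4 genes between the genotypes were -0.03 (SE 0.06) for Ndufb4, 0.0056 (SE 0.036) for Sdha, -0.06 (SE 0.04) for Cox6a1 and -0.03 (SE 0.05) for Atp5k on the log2 scale, none of them called.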

How the data were processed

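Forebrain libraries of 3 Slc13a4+/- and 3 wild-type mice at P20 were used. The authors ran Salmon (v1.2.0) on stranded, rRNA-depleted reads, and deposited estimated counts per transcript, which can be fractional. The TPM values deposited by the authors correct for effective length and total 1000000 per library, and served here for levels between genes and for paralog shares. Index transcripts and build were not given in the sources used here. GENCODE M21 (GRCm38) identifiers, without version, matched 115973 of 117135 transcripts. The unmatched 1162, up to 0.645% of a library, were not used. Counts were summed by gene and rounded to whole numbers. Depth was 60340337 to 80410582 counts. Salmon's division of reads between similar sequences limits the precision of copied genes.

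The quasi-likelihood model of edgeR 4.0.16 (in R 4.3.3, default filter, TMM) was fitted over 17096 genes, with Benjamini-Hochberg adjustment over all of them and calls at an adjusted p under 0.1, the threshold the paper names. Alternatives were the DESeq2 1.42.0 Wald test with and without transcript-length offsets, edgeR with those offsets, limma-voom (limma 3.58.1), RLE factors, normalization without mitochondrial genes, no filter or a CPM of 1, leaving out retained-intron and decay transcripts, leaving out each mouse, and the run of animal numbers (Nas2Del_WT_1016 and Nas2Del_WT_1018 against the others) as a covariate. Named genes were every mitochondrial member, the tissue paralogs and their partners, the 5 nuclear members with the smallest p in each direction, every called member, the highest, lowest and catalytic members of each complex, up to 3 genes with the smallest p of each of 11 lists, and Slc13a4. Some of these are printed, and others were named after their values were seen. They are the 8 members without overlap, those with large or non-overlapping retained-intron and decay shares, the copies and the printed promoters.

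The members and lists were chosen with earlier results of these data known. Chosen after seeing the data were the search for copies (BLAST 2.17.0, 95% identity over at least 100 bases, 90% of the copy covered) and adding their counts, the minimum of 10 TPM for deviations between mice, and the 3 motifs (a first search used an NRF1 motif longer by 1 base). Medians over members have no test, since members are not replicates. Every pair of mice differed beyond sampling noise (chi-square per gene 6.32 to 38.3), so each was counted as a sample. The p-values set the difference between genotypes against the spread between animals of a genotype. The labels do not say more about the origin of each mouse, so litter and sex were not accounted for. Python 3.11.15 joined the files.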

Additional observations from a re-analysis of the deposited data

How the results depend on the processing

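No member was called under any of the 17 alternatives, with edgeR, DESeq2 or limma-voom. With a covariate for the run of animal numbers, where the sole wild-type animal left to compare is Nas2Del_WT_1026 (taken to vary like the rest), the nuclear median log2 fold change was 0.025 and the mitochondrial median -0.21, and 29 of 78 named genes had the opposite sign. In the other alternatives 0 to 9 had it, none of them a called gene. Leaving out 1 mouse gave nuclear medians of -0.094 (without Nas2Del_WT_1026) to -0.031 (without Nas2Del_WT_1016) and mitochondrial medians of -0.100 (without Nas2Del_WT_1016) to 0.048 (without Nas2Del_WT_1026), with 0.006 without Nas2Del_Het_1027. It moved the difference between genotypes in nuclear share between -0.085 and -0.0098 and in mitochondrial share between -0.103 and 0.011 on the log2 scale, and that in their ratio between -0.096 and 0.081. Without Nas2Del_WT_1026 edgeR called 223 genes, and without a filter on low counts 147, against 1 with all mice and the default filter. Adding copies, chosen after seeing the data, moved the mitochondrial median from -0.047 to -0.014. The causes were not tested. No paired analysis was possible because the animal numbers of the genotypes do not overlap and no source used here names litters. Members with few counts, such as Cox8b, and those with near-identical copies could not be measured precisely at this depth.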
